A study of Mus musculus with 2 samples.

Results

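The genes studied here were 10 genes of the cytokine axis that runs from interleukin-6 (IL-6) and interleukin-10 (IL-10) to the transcription factor STAT3: the ligand genes Il6, Lif, Osm and Il10, the receptor genes Il6ra, Il6st, Il10ra and Il10rb, and Stat3 and Socs3. Around them, histone H4 acetylated at lysine 16 (H4K16ac) was mapped by CUT&Tag, in which an antibody tethers a transposase that cuts and tags the DNA beside the modified histone. The cells were mouse macrophages grown from bone marrow in M-CSF (20 ng/ml), their growth factor, and treated for 2 h with R848 (100 ng/ml), an agonist of the endosomal receptor TLR7. There was 1 library from wild-type (WT) cells and 1 from cells deficient in KAT8, the main H4K16 acetyltransferase, labelled KAT8-cKO (read as a conditional knockout). Both groups received R848, no unstimulated library was analysed here, and the labels name neither the driver of the deletion nor the strain or age of the mice. With 1 library per genotype nothing could be tested between genotypes, and every difference below is a difference between these libraries.

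Members were chosen by position: every peak that overlapped one of the 10 genes, from RefSeq start to end, or the 50 kb on either side. This gave 76 of 58229 WT peaks and 62 of 55149 KAT8-cKO peaks, with a peak in the stretch shared by the neighbouring genes Lif and Osm counted once. A peak was placed at a gene end if it reached within 1 kb of either annotated end, otherwise in the gene body or in the flank. The caller's fold compares the fragments over a peak's summit with the local background. The caller's -log10 q is larger where that many fragments are less likely to come from the background alone. Both are the authors' values and describe a peak within its own list.

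IL-6 family ligands bind a private receptor chain, such as the IL-6 receptor encoded by Il6ra, and signal through the shared chain gp130, encoded by Il6st. IL-10 binds IL-10Rα (Il10ra) together with IL-10Rβ (Il10rb). Both routes activate JAK kinases that phosphorylate STAT3, which in macrophages drives Socs3, a brake on gp130 signalling, and the anti-inflammatory programme of IL-10. H4K16ac lies at active promoters and over gene bodies and loosens chromatin packing.

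The promoters of 4 members are shown first because they span the range of peak calls: Stat3 and Il6st with a peak over the start in both lists, Socs3 with a peak beside the start in WT, and Il6 with none. Each is the 250 bases before and 50 bases after the start in RefSeq (GRCm38.p6, the assembly behind mm10), 5′ to 3′ on the strand of the gene, with CpG dinucleotides in capitals. They lie at chr11:100939491-100939790 (minus strand), chr13:112463820-112464119 (plus), chr11:117969317-117969616 (minus) and chr5:30012864-30013163 (plus).
Stat3: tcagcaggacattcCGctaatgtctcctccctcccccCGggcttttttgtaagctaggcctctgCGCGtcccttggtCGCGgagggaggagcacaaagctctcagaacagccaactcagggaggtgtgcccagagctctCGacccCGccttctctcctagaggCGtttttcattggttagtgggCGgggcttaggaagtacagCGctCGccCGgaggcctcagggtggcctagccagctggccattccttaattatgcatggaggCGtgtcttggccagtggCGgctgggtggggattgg
Il6st: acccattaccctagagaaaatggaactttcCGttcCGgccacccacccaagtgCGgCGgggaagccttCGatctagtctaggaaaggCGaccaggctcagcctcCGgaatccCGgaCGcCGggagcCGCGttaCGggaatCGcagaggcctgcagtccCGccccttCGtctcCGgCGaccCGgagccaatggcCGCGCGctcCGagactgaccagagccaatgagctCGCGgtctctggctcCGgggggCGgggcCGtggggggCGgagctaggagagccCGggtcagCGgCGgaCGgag
Socs3: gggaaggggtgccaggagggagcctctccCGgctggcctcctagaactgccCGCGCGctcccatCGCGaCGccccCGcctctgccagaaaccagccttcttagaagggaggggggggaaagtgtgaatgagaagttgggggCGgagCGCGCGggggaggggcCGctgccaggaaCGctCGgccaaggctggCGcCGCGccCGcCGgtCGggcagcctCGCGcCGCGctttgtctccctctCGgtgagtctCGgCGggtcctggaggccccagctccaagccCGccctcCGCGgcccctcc
Il6: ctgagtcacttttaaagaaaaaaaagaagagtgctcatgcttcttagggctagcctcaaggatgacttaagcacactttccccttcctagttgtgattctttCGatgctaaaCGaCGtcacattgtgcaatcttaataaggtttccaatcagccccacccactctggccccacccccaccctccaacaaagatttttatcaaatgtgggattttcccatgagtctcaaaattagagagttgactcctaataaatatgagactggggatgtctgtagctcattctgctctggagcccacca

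The Il6st and Socs3 promoters held 33 and 31 CpGs, Stat3 held 15 and Il6 held 3, against a median of 13 over 21262 starts of protein-coding genes. The Il6ra promoter held 25 and the Lif promoter 7. Il10, Osm, Il10ra and Il10rb had no promoter entry in the table.

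At gene ends, 7 of the 10 genes had a WT peak and 6 a KAT8-cKO peak, beside 46.8% and 43.3% of 21883 protein-coding genes. Osm, Il6ra, Il6st, Il10rb and Stat3 had an end peak in both lists (35.8% of all genes), Lif and Il10 in WT only (11.1%), Il10ra in KAT8-cKO only (7.52%), and Il6 and Socs3 in neither (45.7%). With q under 0.05 the counts were 5 genes in WT (36.8% of all genes) and 3 in KAT8-cKO (31.3%), of which Il6st and Stat3 passed in both. In the gene bodies, away from the ends, 6 members had a WT peak (44.2% of all genes) and 5 a KAT8-cKO peak (42.4%), and Lif, Il6ra and Il10ra had one in both. The map of the 10 loci shows the peaks in place.

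**Figure D1:**
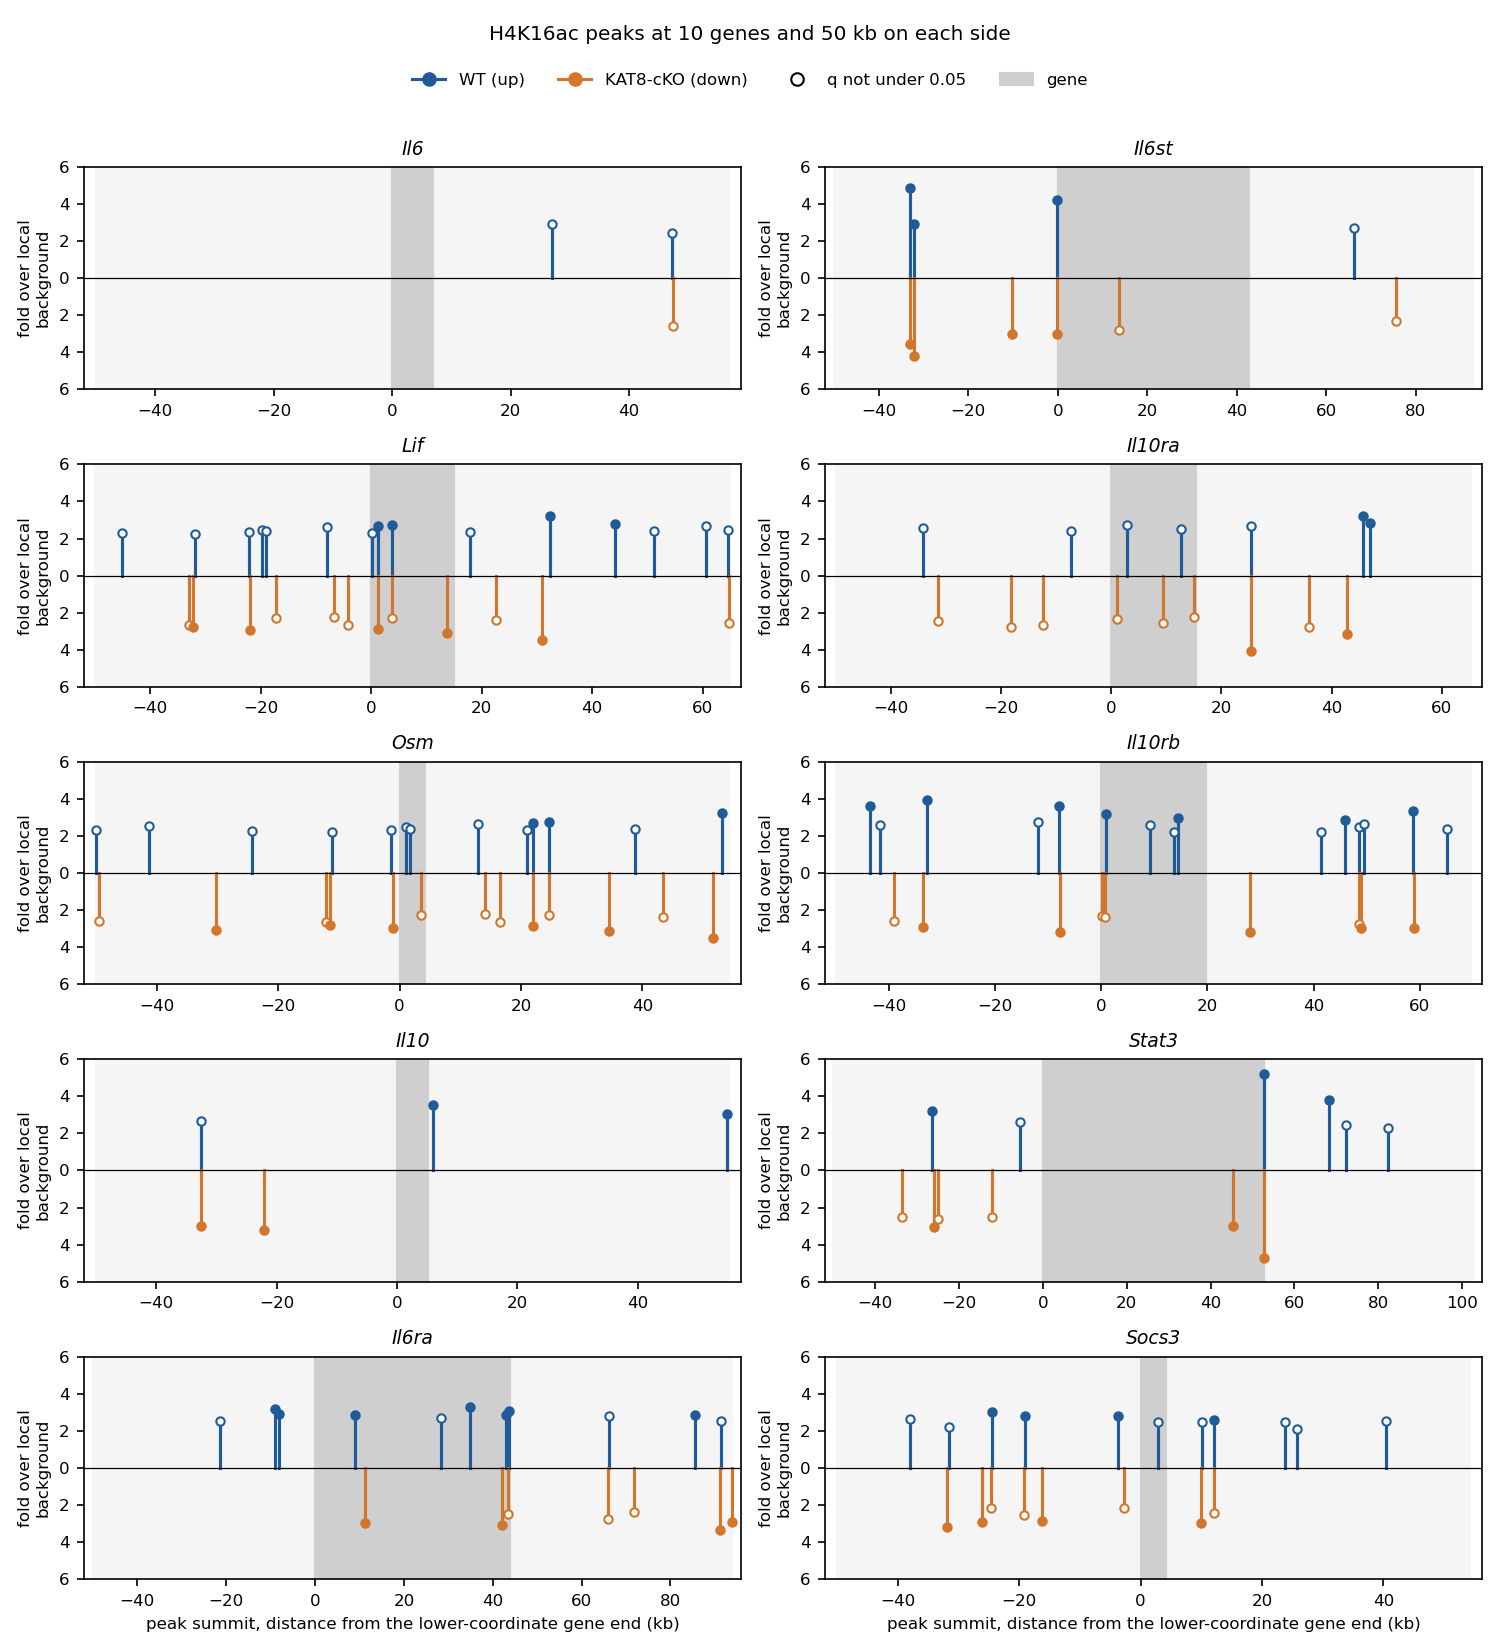
H4K16ac peaks at the 10 genes (dark grey) and 50 kb on each side (light grey). The horizontal axis gives the distance of each peak summit from the lower-coordinate end of the gene in kb, the vertical axis the fold over local background, with WT drawn upwards and KAT8-cKO downwards. Open circles did not reach a q-value under 0.05. Il6 and Il10 are the emptiest loci, with 2 and 3 WT peaks, and Lif and Il10rb the fullest, with 15 each.

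Among the ligand genes, Il6 (chr5:30013114-30019975), which encodes the fever-inducing and acute-phase cytokine IL-6, had no peak at an end or in its body in either list. The nearest edge lay 26717 bp from its start in WT and 47025 bp in KAT8-cKO. Its locus held 2 WT peaks, with folds of 2.93 and 2.44, and 1 KAT8-cKO peak with a fold of 2.56. All 3 lay inside the neighbouring gene Tyms, which encodes thymidylate synthase, and none reached a q-value under 0.05. The weaker WT peak and the KAT8-cKO peak overlapped. The Il6 locus thus held few peaks in both lists, while the median protein-coding locus held 6 WT and 5 KAT8-cKO peaks. As few or fewer were found at 27.8% of protein-coding loci in WT and 21.2% in KAT8-cKO.

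Il10 (chr1:131019845-131024970), which encodes the main anti-inflammatory cytokine of macrophages, had a WT peak beyond its higher-coordinate end and none in KAT8-cKO. This peak at chr1:131025699-131026055 began 729 bp from the gene, with a fold of 3.55 at a -log10 q of 2.58, higher than or equal to 79.9% of WT peaks. Its summit carried 14 fragments (95% Poisson interval 7.65 to 23.5). The gene body held no peak in either list. In the flank, a weak peak 32.1 kb away in WT (fold 2.69) was overlapped by a KAT8-cKO peak (2.99), and a further KAT8-cKO peak 21.8 kb away (3.20) had no WT counterpart. WT also had a peak of fold 3.05 in the body of Mapkapk2, a kinase gene of the p38 pathway.

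Lif and Osm encode leukemia inhibitory factor and oncostatin M, gp130 ligands that lie side by side on chromosome 11. Lif (chr11:4257568-4272514) had a weak WT peak with its summit 212 bp after the start, with a fold of 2.33, a -log10 q of 0.652 and 13 fragments. No KAT8-cKO peak reached the end window. Just outside it, in the gene body, lay a pair of overlapping peaks with summits 1215 bp (WT) and 1201 bp (KAT8-cKO) after the start, with folds of 2.68 and 2.86. A second overlapping pair, with summits 3763 bp and 3785 bp after the start, had folds of 2.73 in WT and 2.27 in KAT8-cKO. The body of Lif held another KAT8-cKO peak (3.11) with no counterpart. The difference at the Lif end thus concerned 1 weak peak, and the nearby body peaks were called in both lists.

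Osm (chr11:4236785-4241026) had end peaks in both lists, but not the same ones. The WT peak at chr11:4237596-4237876 had a fold of 2.46 at a -log10 q of 1.18 and was not overlapped. The KAT8-cKO peaks were at chr11:4235262-4235827, with a fold of 2.96 at a -log10 q of 2.24, and at chr11:4240199-4240507, with a fold of 2.28. The stronger of these overlapped a WT peak (fold 2.33) that stopped short of the 1 kb window. Osm was the member with a KAT8-cKO end peak of q under 0.05 and no such WT peak. At the overlapping pair the local background was 2.17 times that of the genome in WT and 1.56 times in KAT8-cKO. The summits carried 17 fragments (9.90 to 27.2) in WT and 19 (11.4 to 29.7) in KAT8-cKO, and the intervals overlapped. Set against the genome background in place of the local one, the order of the pair turned, with 5.50 times in WT and 5.16 times in KAT8-cKO. Other overlapping pairs with a higher KAT8-cKO fold went both ways. The order also turned at a pair in the Lif body (4.85 in WT and 4.62 in KAT8-cKO). It held at the pair beyond Il10ra (3.88 in WT and 6.52 in KAT8-cKO). None of these orders was tested. The loci of Lif and Osm were peak-dense, with 15 and 13 WT peaks and 12 and 13 KAT8-cKO peaks, many of them shared between the loci. The Lif locus held 13.0 WT peaks per 100 kb, and the median over all protein-coding loci was 4.19.

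Among the receptor genes, Il6ra (chr3:89869324-89913196, minus strand) had its WT end peaks inside the gene just after the start. The stronger, at chr3:89912655-89913195, had a fold of 3.06, a -log10 q of 2.24 and 17 fragments (9.90 to 27.2). The overlapping KAT8-cKO peak had a fold of 2.51, a -log10 q of 0.805 and 13 fragments (6.92 to 22.2). The fragment intervals overlapped, and the q-value of the KAT8-cKO peak was above 0.05. The second WT end peak (fold 2.86) had no counterpart. In the body, 3 WT peaks (2.87, 2.72 and 3.28) and 2 KAT8-cKO peaks (2.99 and 3.06) did not overlap each other.

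Il6st (chr13:112464070-112506860, plus strand) had a peak over its start in both lists. The WT peak at chr13:112463658-112464286 covered all 300 bases of the promoter shown above, with a fold of 4.20, a -log10 q of 4.56 and 18 fragments (10.7 to 28.4). The KAT8-cKO peak at chr13:112463828-112464298 covered 292 of them, with a fold of 2.99, a -log10 q of 1.41 and 13 fragments (6.92 to 22.2). By -log10 q the WT peak stood at or above 91.6% of its list and the KAT8-cKO peak at or above 64.2% of its own. The fragment intervals overlapped. In the flank before the start, 32.7 kb away and outside annotated genes, lay the strongest flanking WT peak of all 10 loci. It had a fold of 4.87, a -log10 q of 6.93 and 22 fragments (13.8 to 33.3), and the KAT8-cKO peak over it had a fold of 3.57 and 16 fragments (9.15 to 26.0). An adjacent overlapping pair had folds of 2.93 in WT and 4.18 in KAT8-cKO, with 13 (6.92 to 22.2) and 19 (11.4 to 29.7) fragments. The intervals overlapped within each pair and between the pairs of each list, and the order of these peaks was not tested.

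Il10ra (chr9:45253837-45269149) was the member with end peaks in KAT8-cKO only. These peaks, 1 at each end, were weak, with folds of 2.35 and 2.25 and -log10 q of 0.662 and 0.374. In WT the body held 2 peaks, with folds of 2.73 and 2.51, neither of which reached a q-value under 0.05. The strongest peak of the locus was a KAT8-cKO peak at chr9:45278949-45279283, 9.80 kb from the gene, with a fold of 4.05, a -log10 q of 5.55 and 24 fragments (15.4 to 35.7). The overlapping WT peak had a fold of 2.69, a -log10 q of 1.02 and 12 fragments (6.20 to 21.0). Of the 24 overlapping pairs in the 10 loci this had the largest excess of KAT8-cKO over WT fragments, and the fragment intervals overlapped.

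Il10rb (chr16:91406157-91425834), whose product also serves other cytokines of the IL-10 family and type III interferons, had a broad WT end peak at chr16:91406181-91407159. It had a fold of 3.19, a -log10 q of 3.18 and 21 fragments (13.0 to 32.1). In KAT8-cKO the same stretch held 2 smaller peaks, both wholly inside the WT peak, with folds of 2.33 and 2.36, -log10 q of 0.537 and 0.589 and 12 fragments each (6.20 to 21.0). The WT peak and 1 of the KAT8-cKO peaks also lay within 1 kb of an end of the neighbour Ifnar2, so they cannot be assigned to Il10rb alone. At the far end of Ifnar2, a chain of the type I interferon receptor, the WT peak had a fold of 3.95 and the KAT8-cKO peak, which lay within 500 bp without overlapping it, 2.92. The body of Il10rb held 3 WT peaks and 0 KAT8-cKO peaks.

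Stat3 (chr11:100886806-100939594, minus strand), the transcription factor on which these receptors converge, had the strongest peak of the set. In WT the peak at chr11:100938861-100940036 had a fold of 5.20, a -log10 q of 9.57 and 28 fragments (18.6 to 40.5). In KAT8-cKO the peak at chr11:100939163-100940019 had a fold of 4.74, a -log10 q of 6.82 and 23 fragments (14.6 to 34.5). Both peaks covered all 300 bases of the promoter, their summits lay 53 bp after and 52 bp before the start, and by -log10 q they stood at or above 97.8% and 97.2% of their lists. The fragment intervals overlapped. Both peaks also lay at an end of the noncoding gene Gm46295. In KAT8-cKO a body peak 7458 bp after the start (fold 2.98) had no counterpart. In the flank, Stat5a, which encodes a related STAT protein, had overlapping peaks near one end with folds of 3.23 in WT and 3.07 in KAT8-cKO.

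Socs3 (chr11:117966079-117970336, minus strand) had no peak within 1 kb of either annotated end. The start in the promoter table lies inside this gene interval, and a WT peak at chr11:117968868-117969252 ended 114 bp from it. This peak had a fold of 2.46, a -log10 q of 1.10 and 16 fragments (9.15 to 26.0), and lay where the local background was 1.91 times that of the genome. The nearest KAT8-cKO edge was 5855 bp from the start. Counted by the promoter table, 5 of the 6 members with an entry had a WT peak within 1 kb of the start (46.7% of 17491 genes) and 3 a KAT8-cKO peak (42.7%): Il6ra, Il6st and Stat3 in both, Lif and Socs3 in WT. The flanks of Socs3 held 10 WT and 8 KAT8-cKO peaks, and 4 pairs overlapped, on both sides of the gene.

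**Figure D2:**
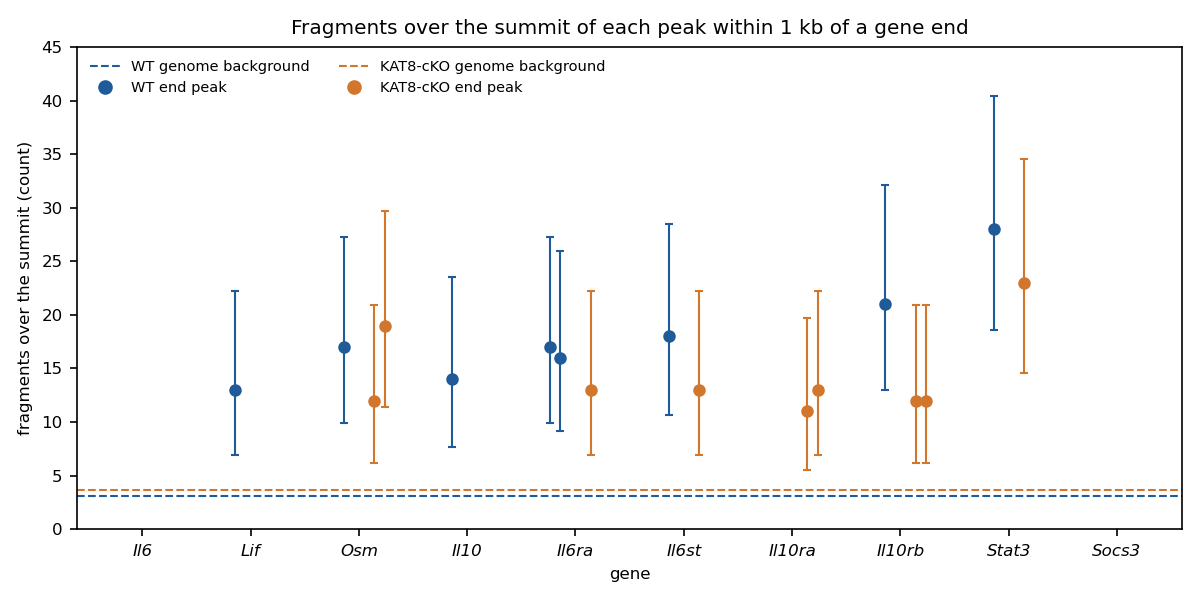
Fragments over the summit of each peak within 1 kb of an end of the 10 genes, with 95% Poisson intervals that cover counting error only, and the genome background of each library as dashed lines (3.09 in WT, 3.68 in KAT8-cKO). Counts are not scaled for depth. Stat3 is highest in both lists, with 28 and 23 fragments, and the intervals of the lists overlap at every gene with a peak in both. Such overlap is not a test and does not show that the counts are equal.

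The fragment counts come from the peak lists themselves: for 99.9% of peaks in each list the fold and p-value were matched by a whole number of fragments at the summit and a background value. The smallest background, taken as that of the genome, was 3.09 fragments in WT and 3.68 in KAT8-cKO, a ratio of 1.19, and the read totals of the libraries were not analysed here. A typical peak rested on few fragments, with medians of 12 and 13 over the lists. In the 10 loci the medians were 14 in WT and 13 in KAT8-cKO, with ranges of 9 to 28 and 10 to 24. At this depth a difference of a few fragments between libraries lies within counting error.

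Of the 76 WT peaks in the 10 loci, 23 were overlapped by a KAT8-cKO peak, 30.3% (95% Wilson interval 21.1 to 41.3), beside 33.2% of all WT peaks. Of the 62 KAT8-cKO peaks, 24 were overlapped, 38.7% (27.6 to 51.2), beside 35.6% of all. Both shares were near those of the whole lists. By position, 4 of 8 WT end peaks, 2 of 12 body peaks and 17 of 56 flanking peaks were overlapped, and in KAT8-cKO 6 of 9, 2 of 8 and 16 of 45. Shares by position over the whole lists are not given here, so these counts are not read as particular to the 10 loci. The 4 overlapped body peaks were the pairs in Lif. A q-value under 0.05 was reached by 32 WT peaks (42.1%, beside 46.9% of the list) and 30 KAT8-cKO peaks (48.4%, beside 47%). Only 2 peaks of each list had a -log10 q of at least 5: at Stat3 in both, before Il6st in WT and beyond Il10ra in KAT8-cKO.

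The number of peaks per locus was higher in WT at 6 genes (46.6% of all protein-coding loci), equal at Osm and Stat3 (22.5%), and higher in KAT8-cKO at Il6st (4 and 6) and Il10ra (7 and 9; 31% of all loci). The WT list is the longer one. The largest gap was at Il10rb, with 15 and 9 peaks. Within 1 kb of an end of another gene lay 9 WT and 6 KAT8-cKO peaks, the other genes including Ifnar2, Stat5a, Tbc1d10a and Atp8b2. In each list 2 of these were also end peaks of a member, at Stat3 and Il10rb.

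The local background around the peaks was higher in WT than in KAT8-cKO at 9 of the 10 loci, when each is expressed as a multiple of the background of its own genome. The background values moved in steps of 0.02 fragments, which equals 200 bp, the smallest peak width, over the 10 kb window that MACS2 uses by default. They were therefore read as fragment density over a window wider than the peak. Socs3 had the highest value in WT, a median of 1.75 over its peaks, against 1.28 in KAT8-cKO. Osm followed with 1.60 and 1.26, Lif with 1.56 and 1.26, Il10ra with 1.48 and 1.15, and Il10rb with 1.43 and 1.00. At Stat3 the values were 1.37 and 1.10, at Il6ra 1.36 and 1.24, at Il6st 1.17 and 1.01, and at Il10 1.04 and 1.00. Il6 stood at the genome level of 1.00 in both. That level is the smallest value of each list, so 1.00 is a floor and a lower local density would not show. At this floor lay 36.5% of all WT peaks and 43.2% of all KAT8-cKO peaks. Equal values at the floor do not show equal density.

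The same order held at 60.5% of 18359 protein-coding loci with peaks in both lists, and at 77.3% of 6679 loci with at least 9 WT peaks, the median of the members. Over all loci the medians were 1.14 in WT and 1.09 in KAT8-cKO, and over the members 1.40 and 1.13. In the 10 loci the WT value was higher at 20 of 24 overlapping pairs of peaks, equal at 3 and lower at 1. The equal pairs were all at the floor, and the lower was the pair beyond Il10ra (1.24 and 1.41). Over all 19971 overlapping pairs it was higher at 57.7%. At the Stat3 start the values were 1.48 and 1.10, and at the Il10rb end 1.91 in WT against 1.24 and 1.22 at the KAT8-cKO peaks. The loci of Lif and Osm share peaks and are not independent. Each library is set against its own genome background, so a uniform loss of H4K16ac would not show in these values. Genotype, depth and signal-to-noise of single libraries cannot be told apart.

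**Figure D3:**
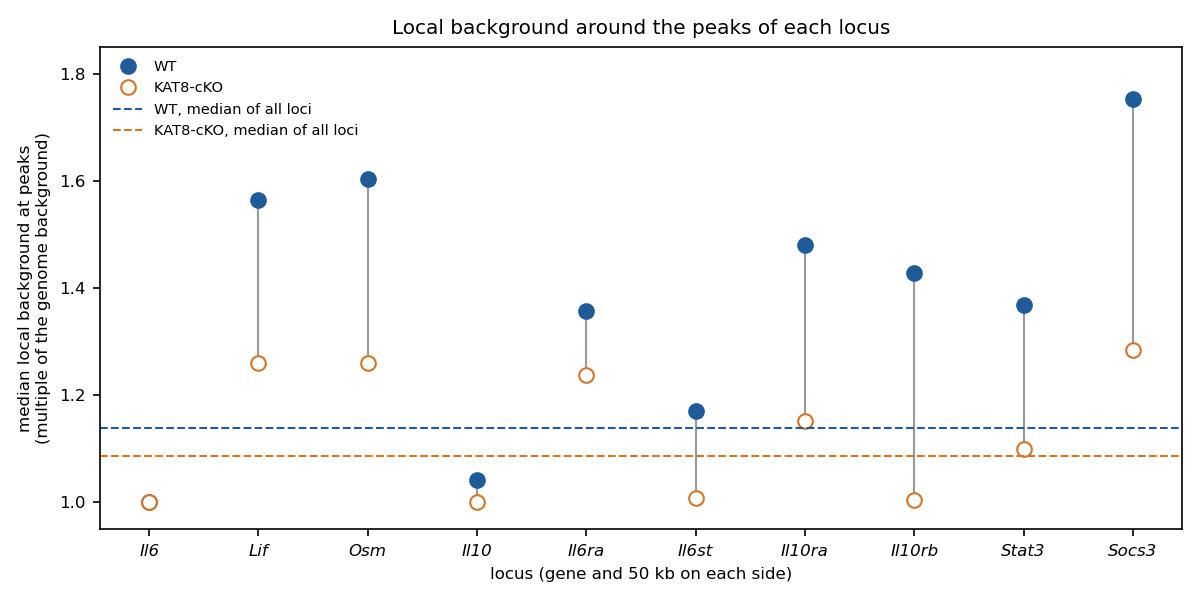
Median local background at the peaks of each locus, as a multiple of the genome background of the same library, in WT (filled) and KAT8-cKO (open). Dashed lines mark the medians over 18359 protein-coding loci, 1.14 and 1.09. WT lies above KAT8-cKO at every locus but Il6, where both are at 1.00, the floor of the measure, and the vertical axis does not start at 0.

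The CpG content of a start went with the presence of a peak across the genome. A peak within 1 kb was found at 7.29% of WT and 7.11% of KAT8-cKO starts with 0 to 2 CpGs in the promoter, at 18.3% and 14.7% with 3 to 5, and at 73.2% and 67.6% with at least 21. Il6, with 3 CpGs and no peak, lay in a class where most starts have none. Il6st and Il6ra, with peaks in both lists, and Socs3, with a WT peak, lay in the class richest in CpG. Lif, with 7 CpGs, had a WT peak, as did 30.1% of its class in WT and 25.6% in KAT8-cKO. Stat3, the strongest of the set, lay in the middle, with 15 CpGs, in a class with peaks at 54.4% and 48.7% of starts.

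**Figure D4:**
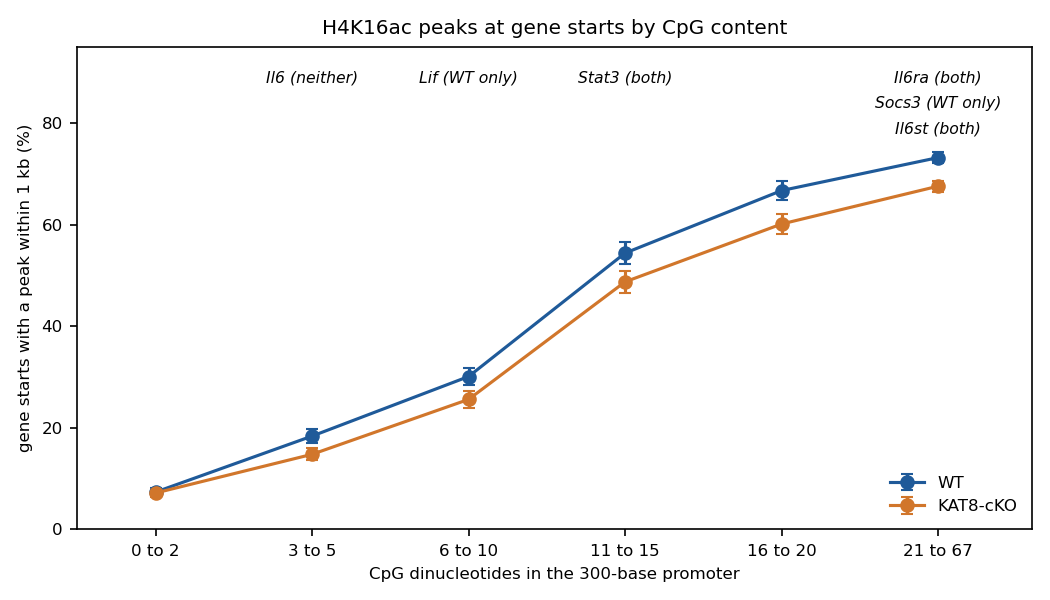
Share of protein-coding gene starts with an H4K16ac peak within 1 kb, by the number of CpG dinucleotides in the 300-base promoter, in WT and KAT8-cKO, with 95% Wilson intervals. The 6 members with a promoter entry are written above their class, with the list in which they had a peak. The share rises from 7.29% to 73.2% in WT and from 7.11% to 67.6% in KAT8-cKO.

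Sequence matches in these promoters were few. The STAT motif TTCNNNGAA was found in the Socs3 promoter, once, as TTCTTAGAA at -154 from the start, and in none of the other 5 member promoters, while 8.30% of 32851 promoters in the table held it. The AP-1 motif TGANTCA occurred in Il6 (TGAGTCA, -249) and Lif (TGACTCA, -228), as in 7.81% of promoters. Of a loose NF-κB motif (GGG and CC with any 5 bases between), held by 50.8% of promoters on either strand, Il6 had 3 matches including GGGATTTTCC at -44, Lif 5, Il6ra 2, Il6st and Socs3 1 each and Stat3 0; matches on opposite strands of one site count separately. The CRE motif TGACGTCA (1.79%) and the TATA motif TATAAA (13.6%) were in none. These are matches of letters and not sites of binding.

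Other genes of the pathway were described from a list of 56. Of these, 34 had an end peak in WT and 31 in KAT8-cKO, 60.7% and 55.4%, beside 46.8% and 43.3% of all genes. There were 27 in both lists (beside 35.8% of all genes), 7 in WT only (11.1%), 4 in KAT8-cKO only (7.52%) and 18 in neither (45.7%). With q under 0.05 there were 27 genes in WT and 17 in KAT8-cKO, beside 36.8% and 31.3% of all genes. The median fold of the strongest end peak was 3.27 in WT and 2.84 in KAT8-cKO, beside 3.42 and 3.13 over all genes with such a peak. For the 10 members these medians were 3.19 and 2.73.

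The brakes on the pathway (SOCS and PIAS proteins and phosphatases) had an end peak at 10 of 13 genes in WT (76.9%, beside 46.8% of all genes) and 11 in KAT8-cKO (84.6%, beside 43.3%). Socs5 had folds of 5.70 in WT and 4.87 in KAT8-cKO, and Ptpn2, a phosphatase that acts on JAK and STAT proteins, 5.51 and 4.86. Socs4 had 5.41 and 3.40, and Ptpn11, which encodes the phosphatase SHP2, 4.39 and 2.44. Socs1, the relative that curbs interferon signalling, had 3.85 and 3.26, and thus an end peak in both lists. Socs3 had none at its annotated ends, though a WT peak lay within 1 kb of its start in the promoter table. Socs2 had a peak in KAT8-cKO only (2.56), which also lay at an end of 5730420D15Rik. In at least 1 list the strongest end peaks of Socs4 and Socs5 also lay at an end of Wdhd1 and Gm30510. Such peaks cannot be assigned to the brakes alone.

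Of the kinases and STATs, 8 of 10 had a WT end peak (beside 46.8% of all genes) and 7 a KAT8-cKO end peak (beside 43.3%). Jak1, the kinase shared by gp130 and the IL-10 receptor, had folds of 3.90 and 4.06, Jak2 3.39 and 3.20, and Tyk2 2.27 and 2.36. The strongest peaks of the lists overlapped at Jak2 but were different peaks at Jak1 and Tyk2. Stat5a was counted in WT only (3.23), although the overlapping KAT8-cKO peak lay just outside the window. Stat4 was counted in KAT8-cKO only (2.64), by a peak that also lay at an end of Gm31812. Within 1 kb of a Stat4 start in the promoter table, by contrast, there was a peak in WT and none in KAT8-cKO.

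Of 16 STAT3 target genes, 9 had an end peak in WT (56.2%, beside 46.8% of all genes) and 5 in KAT8-cKO (31.2%, beside 43.3%). With q under 0.05 there were 7 and 2, beside 36.8% and 31.3% of all genes. Pim1, Cebpd, Fos, Etv3 and Sbno2 had one in both lists (beside 35.8% of all genes). Il4ra (4.40), Il1rn (3.44), Junb (2.45) and Cebpb (2.33) had one in WT only (beside 11.1% of all genes). Il4ra encodes the IL-4 receptor chain and Il1rn the IL-1 receptor antagonist, both induced by IL-10. The Junb summit carried 28 fragments, as many as that of Stat3 in WT, at a fold of 2.45 against 5.20. Of the 7 target genes counted in neither list, Mcl1 and Hif1a had a peak within 1 kb of a start in the promoter table in both lists, and Bcl6 and Nfil3 in WT only. Of 12 other genes of the IL-6 family, 7 had an end peak in each list (58.3%, beside 46.8% and 43.3% of all genes), Cntfr in KAT8-cKO only (3.85) and Clcf1 in WT only. Cntfr had a peak within 1 kb of a start in the promoter table in both lists. Of 5 other IL-10 family genes, Il20 alone had one, in KAT8-cKO (2.56).

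**Figure D5:**
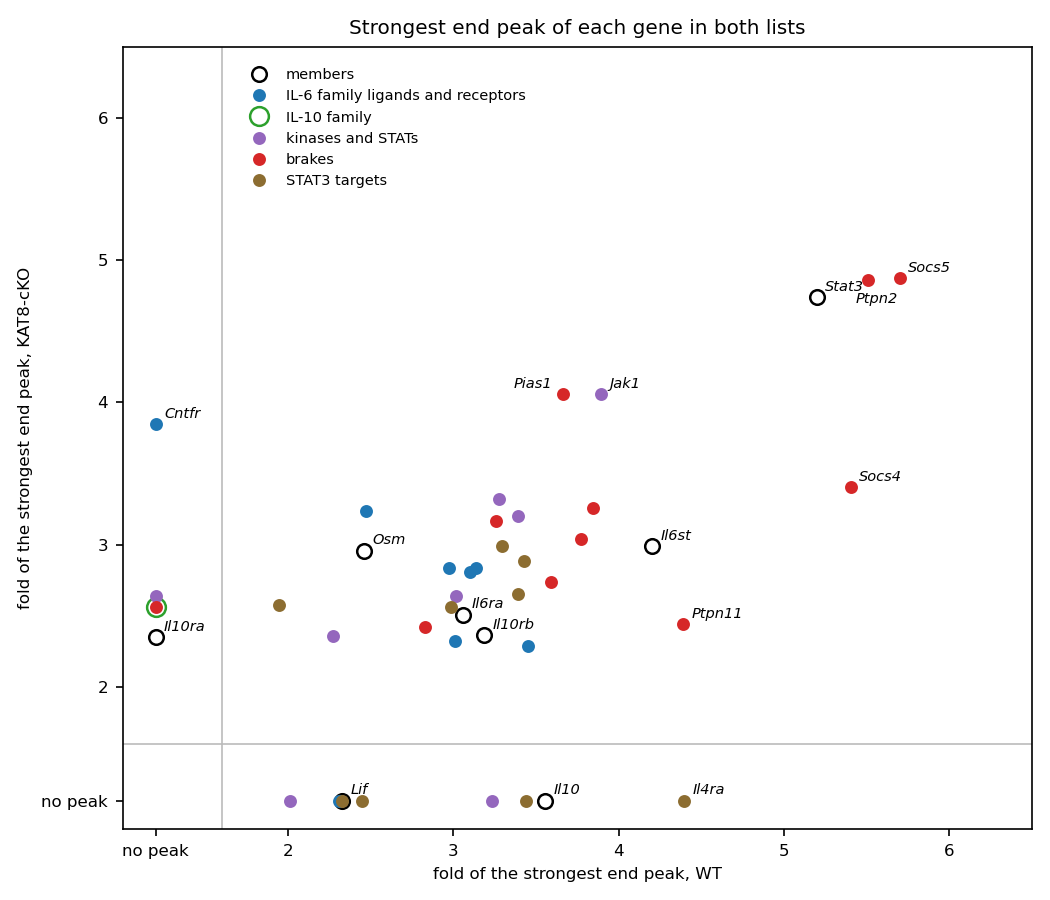
Fold of the strongest end peak in WT (horizontal) and KAT8-cKO (vertical) for the 10 members (open circles) and further genes of the pathway, coloured by group; genes without a peak in a list are drawn at "no peak", and genes without one in either are left out. Stat3, Ptpn2 and Socs5 lie at the upper right, with folds of 4.74 to 5.70. At "no peak" in WT, the points of Il20 and Socs2 coincide at 2.56.

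As a check of the cell label, 10 of 12 macrophage marker genes had an end peak in WT (beside 46.8% of all genes) and 6 in KAT8-cKO (beside 43.3%), Lyz2 in neither. With q under 0.05 the counts were 4 and 3 of 12, beside 36.8% and 31.3% of all genes, so the KAT8-cKO count and both stricter counts were near or below the share of all genes. Markers of other cells had one in 1 of 5 (T cell), 1 of 4 (B cell), 1 of 6 (neutrophil) and 1 of 4 (fibroblast) genes in WT. In KAT8-cKO the counts were 0, 1, 1 and 1. An acetylation peak is not a measure of expression, and the completeness of the KAT8 deletion was not measured here.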

How the data were processed

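H4K16ac CUT&Tag peak lists of 1 WT and 1 KAT8-cKO library were used. Groups came from the genotype labels. Per the submitters' processing notes, MACS2 2.2.7.1, Bowtie 0.12.8 and DiffBind were used with mm10, with no role stated for any. Peak thresholds, a control library and duplicate removal are not stated either. The deposited columns hold a score (10 times the -log10 p), the fold (ratio) over background, the p-value and q-value as -log10, and the summit offset. Lists were made per library by the authors, with no pooling stated.

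Gene positions and promoters came from RefSeq tables of GRCm38.p6 (6 of 10 members had a promoter entry). Overlap meant at least 1 bp. Summit fragments k and background b were solved from fold = (k + 1)/(b + 1) and the Poisson probability of more than k fragments, with a relative tolerance of 0.0001; 62 WT and 69 KAT8-cKO peaks, none in the 10 loci, were not resolved. Intervals are 95% Wilson or exact Poisson and cover counting error only. No test was made between genotypes, for lack of replicates.

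Members and gene lists were chosen with earlier results of these data known, and the local background measure after its values could be seen. Named genes were the members, genes whose ends hold flanking peaks, and up to 5 pathway genes with the highest fold in each class, except 1 gene that is counted but neither named nor plotted here; other list genes are given as examples chosen after their values were seen. Scripts ran in Python 3.11.15 with pandas 2.3.3, numpy 2.4.6, scipy 1.17.1 and matplotlib 3.10.9. Alternatives covered peak threshold, flank, end window and overlap.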

Additional observations from a re-analysis of the deposited data

How the results depend on the processing

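Counts followed the peak threshold. With q under 0.05, -log10 q of at least 5, or the strongest 20000 peaks of each list, the 10 loci held 32, 2 and 23 WT peaks and 30, 2 and 23 KAT8-cKO peaks, in place of 76 and 62. With flanks of 20 kb they held 40 and 35, and with 100 kb 124 and 96. Under the same 3 thresholds 3, 1 and 2 members had a KAT8-cKO end peak, as did 3 by the promoter table start; in WT the count was 1 with the -log10 q threshold of 5 and 5 to 9 under the other alternatives. Pathway genes with an end peak numbered 17, 2 and 16 in KAT8-cKO, and 5 in WT with the -log10 q threshold of 5. The share of KAT8-cKO member peaks overlapped was 26.7% with q under 0.05, 17.4% with the strongest 20000 peaks and 25.8% where at least 50% of a peak had to be covered. The WT share was 17.4% with the strongest 20000 peaks and 50% (1 of 2 peaks) with the -log10 q threshold of 5. Whole-list overlap shares under these settings are not given here, so these shares are not read as particular to the 10 loci. For end peaks, shares over all genes are not given at -log10 q of at least 5 or for the strongest 20000 peaks. The local background was higher in WT at 8 of 8 loci with a flank of 20 kb, 8 of 10 with 100 kb, 9 of 10 by the mean and 9 of 9 with q under 0.05, alternatives chosen after seeing the data. Medians of 12 and 13 fragments per summit limit what single peaks can show. No paired analysis was possible because each genotype has 1 library.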
